A study of Mus musculus with 4 samples.

Results

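Collagen genes were taken from the array table as every gene whose symbol is Col, a number, the letter a and a second number, a form that names the α chains of the collagens. The table held 40 such symbols on 87 probes, among 30872 genes in all. Genes entered the comparison with any probe whose detection p-value, the rank of a probe among its array's negative controls, was under 0.01 on 1 or more of the 4 arrays. This left 29 collagen genes among 12616 genes, and the brightest detected probe stood for each gene. Of the 29, 28 were detected on all 4 arrays, and Col20a1 was detected only on the WT Rb-HA array, at an intensity of 59.5 against 49.8 to 53.9 on the other arrays. The 11 collagen genes that were not detected lay at 30.8 to 53.0 on all their 24 probes. Nearest to the threshold among them were Col9a2 and Col11a2, with lowest detection p-values of 0.0171 and 0.0288.

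The arrays came from an experiment on the retinoblastoma protein Rb, a repressor of transcription, in mouse embryonic fibroblasts (MEFs) of strain FVB;129. Rb was deleted from MEFs with loxP-flanked Rb genes by the cell-permeable recombinase TAT-Cre, given as 2 treatments of 1 h at an interval of 3 h, and Rb was put back by retrovirus. The question put to the arrays was what Rb that cannot be phosphorylated by cyclin-dependent kinases does to transcription, next to wild-type Rb, during a DNA damage response. The 4 conditions had 1 array each. Parental MEFs received a solution without TAT-Cre and media without virus and kept their own Rb (labelled control, unaltered). Rb-deleted MEFs received TAT-Cre and media without virus. WT Rb-HA MEFs received TAT-Cre and a retrovirus for HA-tagged wild-type Rb (labelled wt RB), and ΔCdk Rb-HA MEFs received TAT-Cre and a retrovirus for the phospho-mutant (labelled dCDK RB). The study's methods state that all were released from contact arrest and given a sub-lethal dose of doxorubicin, which the labels do not mention. Of the 4 samples none was without doxorubicin by that account and none had an empty virus, and the sources used here do not state from how many embryos the cells came.

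Collagens are secreted proteins of the extracellular matrix in which α chains wind into a triple helix. Fibrillar collagens form the tensile fibrils of connective tissue, and fibroblasts are their main source. Basement membrane (type IV) collagen forms a sheet-like network under epithelia and around muscle and vessels, while FACIT collagens (fibril-associated collagens with interrupted triple helices) sit on the surface of fibrils. Other classes form beaded filaments (type VI), short-chain networks (types VIII and X), the multiplexins of vessel and basement membrane zones (types XV and XVIII), transmembrane collagens and anchoring fibrils.

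Rb1, the deleted gene, read 543 on the parental array with its brighter probe and 160 to 181 on the other arrays. This probe starts at base 4421 of the transcript, and whether it lies within the deleted part is not given in the sources used here, nor is it given whether the retroviral transcripts carry its sequence, so it checks neither the re-expressed Rb nor the extent of the deletion. Mean intensity per array ran from 336 to 346 and the median number of beads behind a value was 44 on each array. All 10 fibroblast markers were detected, with summed intensities of 37205 to 40947, a sum weighted toward bright probes such as that of Vim. On the ΔCdk Rb-HA array 5 of the 10 lay above parental and 5 below (50.9% of all genes were below). Of those below, Pdgfrb read 368 on the parental, 435 on the Rb-deleted, 366 on the WT Rb-HA and 231 on the ΔCdk Rb-HA array. Of those above, S100a4 read 1732, 1672, 1679 and 2164 in that order. Of 12 leukocyte markers 9 were detected, and their summed intensity was 10475 on the parental array against 5077 to 6405 on the others. This sum is weighted toward the bright probes of Lyz and Laptm5. Against parental, all 9 were lower in Rb-deleted MEFs (all genes: 47.5%) and all 9 with WT Rb-HA (48.6%). With ΔCdk Rb-HA 8 were lower (50.9%), and Cd53 was higher. Emr1 read 773 on the parental, 247 on the Rb-deleted, 203 on the WT Rb-HA and 198 on the ΔCdk Rb-HA array. Laptm5 read 2286, 860, 663 and 782 in that order. Ptprc, Fcer1g and Itgam, also markers of leukocytes, were not detected. For other cells, 3 of 7 chondrocyte markers, 3 of 8 osteoblast markers, 4 of 7 epithelial markers, 1 of 6 endothelial markers and 3 of 5 skeletal muscle markers were detected. The detected osteoblast and endothelial markers were dim, at 46.1 to 67.0 over the 4 arrays.

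With 1 array per condition there was no replicate check, and the error given beside each log2 difference is the bead standard error, the spread between beads of a probe carried through the normalization. It covers measurement within an array only, and the number of arrays limits the precision. A difference was counted when it passed the study's filter of 1.6-fold, or 0.68 on the log2 scale of normalized signal. Intensities are the deposited linear values and are compared only for the same probe across arrays.

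Most collagen genes were highest in parental MEFs, and most were lowest in ΔCdk Rb-HA MEFs. Parental was the highest array for 17 of 29 collagen genes (58.6%, against 29.7% of all 12616 genes) and the lowest for none (all genes: 31.0%). ΔCdk Rb-HA was the lowest array for 18 of 29 (62.1%, against 29.6% of all genes). Rb-deleted was the lowest for 8 (27.6%, against 22.9%) and WT Rb-HA for 3 (10.3%, against 16.5%). In other words these 17 genes lay below parental on all 3 other arrays, as did 29.5% of all genes, and 0 lay above parental on all 3. The parental array was also the array with the most leukocyte marker signal, whose part in these differences was not tested. In bulk RNA, fewer cells of a type and less RNA per cell cannot be told apart.

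Past 1.6-fold against parental, every collagen gene was lower except Col14a1 in Rb-deleted MEFs. On the Rb-deleted array 3 collagen genes were lower (all genes: 2.98%), namely Col3a1, Col5a2 and Col10a1, and 1 was higher (all genes: 2.14%). On the WT Rb-HA array Col5a2, Col27a1 and Col10a1 were lower, 3 of 29 (2.46%), and 0 higher than parental (0.888%). On the ΔCdk Rb-HA array 7 of 29 were lower (3.3%) and 0 were higher (2.58%), the 7 being Col3a1, Col5a2, Col5a3, Col27a1, Col14a1, Col8a1 and Col8a2. On that array 22 of the 29 lay below parental by more than 2 bead standard errors and 0 above it, a margin that 27.2% of all genes passed downward and 26.1% upward. These 3 comparisons share the parental array, so a single high or low parental value enters all of them.

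Among the TAT-Cre treated cells, WT Rb-HA and Rb-deleted MEFs differed past 1.6-fold in 0 collagen genes in either direction, where 0.539% of all genes were higher and 0.484% lower with WT Rb-HA. By more than 2 bead standard errors 6 of the 29 were higher (20.7%, against 15.0% of all genes) and 7 lower (24.1%, against 18.8%). The 6 include Col20a1 (0.36 ± 0.15), which passed the detection filter on the WT Rb-HA array alone. It entered the set through the array where it was high, so its place among the 6 carries no weight. ΔCdk Rb-HA MEFs differed from Rb-deleted MEFs in 4 collagen genes that were lower (all genes: 1.95%), Col14a1, Col15a1, Col8a2 and Col6a2, and in 1 that was higher (2.31%), Col10a1. Against WT Rb-HA MEFs, 3 were lower with ΔCdk Rb-HA (1.01%), Col14a1, Col15a1 and Col8a2, and Col10a1 was again higher, 1 of 29 (0.84%). Median log2 differences over the 29 collagen genes were -0.17 for Rb-deleted, -0.16 for WT Rb-HA and -0.45 for ΔCdk Rb-HA against parental, the WT Rb-HA value being -0.057 with the mean of all detected probes of a gene. The same medians over all 12616 genes were 0.02, 0.01 and -0.01.

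**Figure D1:**
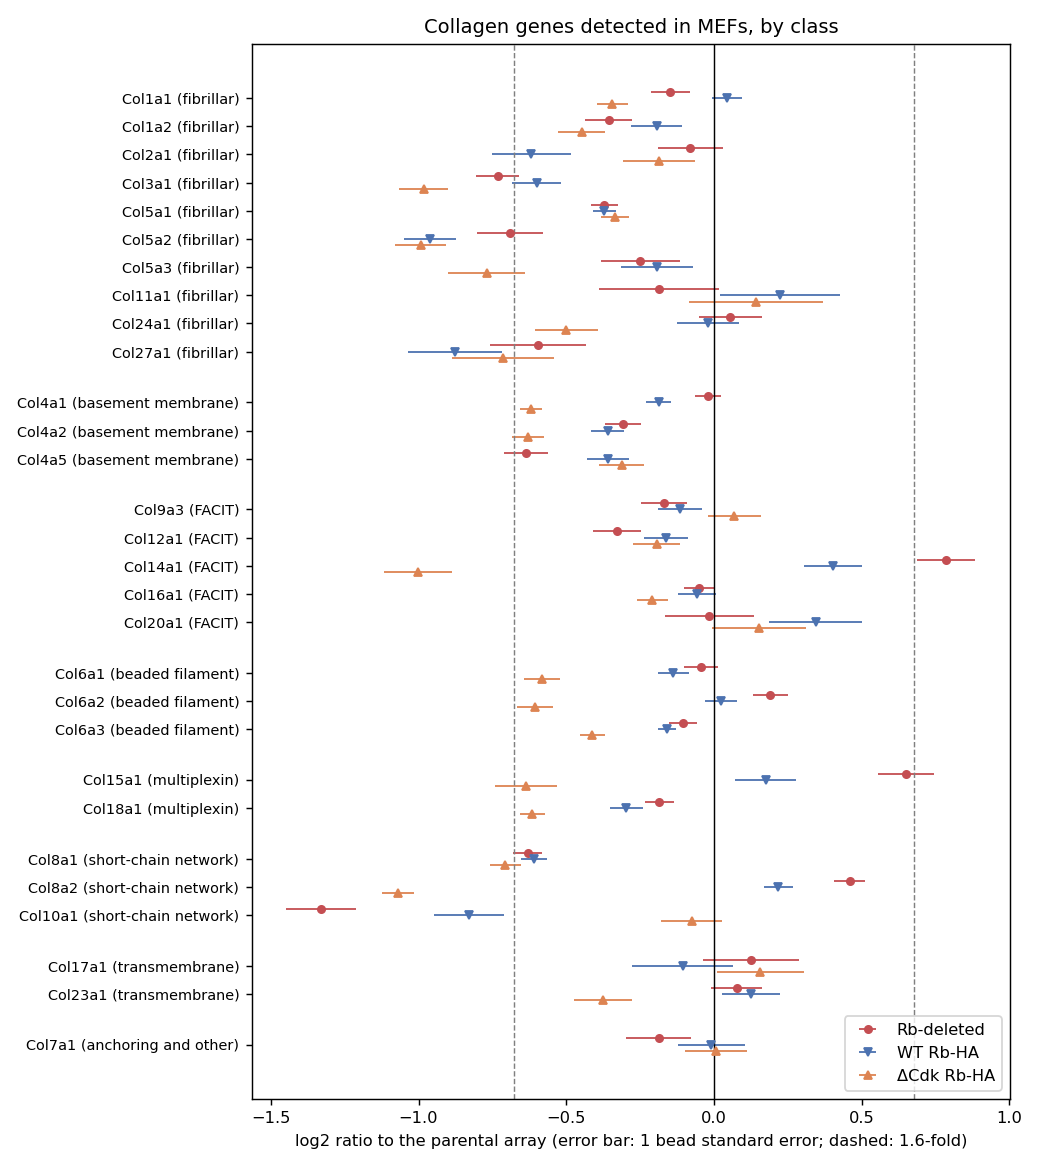
Log2 ratio of each of the 29 detected collagen genes to the parental array, by class, with circles for Rb-deleted, downward triangles for WT Rb-HA and upward triangles for ΔCdk Rb-HA. Bars are 1 bead standard error of a single array pair, and dashed lines mark 1.6-fold. Most points lie left of 0, with 24 of 29 genes below 0 on the ΔCdk Rb-HA array (all genes: 50.9%). Col10a1, Col14a1, Col15a1 and Col8a2 spread widely between the arrays.

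The fibrillar class, with 10 of its 11 symbols detected, was lower than parental on all 3 arrays by its median. The medians were -0.30 on the Rb-deleted, -0.28 on the WT Rb-HA and -0.47 on the ΔCdk Rb-HA array. Below 0 were 9, 8 and 9 of the 10 genes (all genes: 47.5%, 48.6% and 50.9%). Past 1.6-fold below parental were 2, 2 and 4 of the 10 (all genes: 2.98%, 2.46% and 3.3%), and 0 were above (all genes: 2.14%, 0.888% and 2.58%). Between the TAT-Cre treated arrays no fibrillar gene passed 1.6-fold, where 0.484% to 2.31% of all genes did in each direction. The medians were 0.03 for WT Rb-HA minus Rb-deleted, -0.16 for ΔCdk Rb-HA minus Rb-deleted and -0.17 for ΔCdk Rb-HA minus WT Rb-HA.

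Col3a1, the chain of type III collagen, which forms the thin fibrils of skin and vessels, had intensities of 9036 on the parental, 5321 on the Rb-deleted, 5985 on the WT Rb-HA and 4638 on the ΔCdk Rb-HA array. It was high in parental MEFs alone, and lower by 1.66-fold, 1.52-fold and 1.98-fold on the other arrays (log2 -0.73 ± 0.07, -0.60 ± 0.08 and -0.98 ± 0.08). A second Col3a1 probe, starting at base 268 of the transcript where the first starts at 4642, gave -0.90 ± 0.08, -0.44 ± 0.08 and -0.40 ± 0.07. Both probes placed parental highest, but the second placed ΔCdk Rb-HA above Rb-deleted, by 0.50 ± 0.08, where the first placed it 0.25 ± 0.07 below.

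Col5a2, a chain of type V collagen, which nucleates fibrils and limits their width, followed the same order of parental against the rest. Its intensities were 906 on the parental, 554 on the Rb-deleted, 459 on the WT Rb-HA and 437 on the ΔCdk Rb-HA array, or 1.61-fold, 1.95-fold and 1.99-fold lower than parental. The first of these was at -0.67 without background correction and -0.66 with an offset of 50, just short of 1.6-fold. Of the other 3 Col5a2 probes that were detected, those starting at bases 18 and 6400 were also below parental on all 3 arrays, by -0.61 to -1.005 on the log2 scale. The dimmest of the 3, detected on 2 arrays, was at -0.53 and -0.58 in Rb-deleted and in WT Rb-HA MEFs and at -0.003 in ΔCdk Rb-HA MEFs. Col3a1 and Col5a2 lie side by side on chromosome 1, with 0 coding genes between them in the RefSeq annotation. Their log2 ratios to parental differed by 0.04 ± 0.13 on the Rb-deleted and 0.01 ± 0.12 on the ΔCdk Rb-HA array, and by 0.36 ± 0.12 on the WT Rb-HA array.

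Col5a1, the other major type V chain, encoded on chromosome 2, lay nearer to parental than Col5a2. It read 18527 on the parental array and 14113 in Rb-deleted MEFs, 14827 with WT Rb-HA and 14917 with ΔCdk Rb-HA, so that the 3 treated arrays were alike and below parental by -0.37 ± 0.04 (Rb-deleted), -0.37 ± 0.04 (WT Rb-HA) and, with ΔCdk Rb-HA, -0.34 ± 0.05. The gap between Col5a1 and Col5a2 was 0.32 ± 0.12, 0.59 ± 0.10 and 0.66 ± 0.10 in the same order. Col5a3, a minor type V chain, was past 1.6-fold only in ΔCdk Rb-HA MEFs, with an intensity of 97.7 against 153 in parental, 130 in Rb-deleted and 136 in WT Rb-HA MEFs (log2 -0.77 ± 0.13 against parental). Without background correction this difference was -0.61, short of 1.6-fold.

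The chains of type I collagen, the main protein of tendon, skin and bone, did not pass 1.6-fold on any array. Col1a1 had intensities of 7256 on the parental, 6298 on the Rb-deleted, 7261 on the WT Rb-HA and 5583 on the ΔCdk Rb-HA array, so that WT Rb-HA stood level with parental and ΔCdk Rb-HA was the lowest. Col1a2 read 3172, 2391, 2690.0 and 2234 in the same order, and parental was the highest and ΔCdk Rb-HA the lowest. Relative to parental, Col1a1 was at -0.15 ± 0.07, 0.05 ± 0.05 and -0.34 ± 0.05, and Col1a2 at -0.36 ± 0.08, -0.19 ± 0.09 and -0.45 ± 0.08. Both chains thus had WT Rb-HA above Rb-deleted, by 0.19 ± 0.07 and 0.16 ± 0.08, and ΔCdk Rb-HA below WT Rb-HA, by -0.39 ± 0.05 and -0.25 ± 0.08.

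Col27a1, a fibrillar chain known mainly from cartilage, was a dim gene with 105 on the parental, 76.0 on the Rb-deleted, 69.1 on the WT Rb-HA and 72.5 on the ΔCdk Rb-HA array. Parental was high and the others did not separate beyond 2 bead standard errors. Its log2 ratio to parental was -0.60 ± 0.16, -0.88 ± 0.16 and -0.71 ± 0.17, of which the latter 2 passed 1.6-fold. Neither passed without background correction (-0.62 and -0.51), and the dimmer second Col27a1 probe gave -0.13 ± 0.16, -0.20 ± 0.16 and -0.23 ± 0.17. The remaining fibrillar genes detected, Col2a1, Col11a1 and Col24a1, passed 1.6-fold in none of the 6 comparisons. Col2a1, the main chain of cartilage collagen, was lowest on the WT Rb-HA array (-0.62 ± 0.13 against parental), and Col24a1 on the ΔCdk Rb-HA array (-0.50 ± 0.11), where its other detected probes gave -0.14 ± 0.10 and 0.23 ± 0.12.

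Basement membrane collagen was represented by 3 of 6 type IV genes, and all 3 were below parental on every other array, none past 1.6-fold. Their median was -0.31 on the Rb-deleted, -0.36 on the WT Rb-HA and -0.62 on the ΔCdk Rb-HA array. Col4a1 and Col4a2, whose products form the common type IV trimer, share a promoter region on chromosome 8. Their RefSeq start sites lie 21 bases apart on opposite strands. Col4a1 read 7652 on the parental, 7315 on the Rb-deleted, 6605 on the WT Rb-HA and 4921 on the ΔCdk Rb-HA array, and Col4a2 read 6272, 4884, 4834 and 3999.9. Both were lowest in ΔCdk Rb-HA MEFs and there nearly equal relative to parental, at -0.62 ± 0.04 and -0.63 ± 0.05. In Rb-deleted MEFs they parted, with Col4a1 at -0.02 ± 0.04 and Col4a2 at -0.31 ± 0.06, a gap of 0.29 ± 0.07.

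Col4a5, an X-linked type IV chain that pairs with other partners, had a different order. Its intensities were 941 on the parental, 594 on the Rb-deleted, 707 on the WT Rb-HA and 709 on the ΔCdk Rb-HA array. Rb-deleted was its lowest array, and the arrays of both re-expressed forms did not differ beyond the bead error (0.05 ± 0.07), while a second probe placed ΔCdk Rb-HA below WT Rb-HA by -0.17 ± 0.08. Both lay above Rb-deleted, by 0.28 ± 0.06 and 0.32 ± 0.07, where Col4a1 and Col4a2 lay below it with ΔCdk Rb-HA, at -0.60 ± 0.04 and -0.32 ± 0.06. Col4a3, Col4a4 and Col4a6 were not detected.

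By their medians FACIT collagens stood nearer to parental than the fibrillar and basement membrane classes, with Col14a1 an exception. Of 9 symbols 5 were detected, with medians of -0.05 in Rb-deleted, -0.06 in WT Rb-HA and -0.19 in ΔCdk Rb-HA MEFs, of which the latter 2 turned to 0.12 and 0.07 when detection p-values below 0.05 were admitted. Col12a1, which binds type I fibrils, read 2817 on the parental, 2159 on the Rb-deleted, 2444 on the WT Rb-HA and 2367 on the ΔCdk Rb-HA array. By this probe parental was the highest and Rb-deleted the lowest array, at -0.33 ± 0.08. A second Col12a1 probe also placed Rb-deleted lowest, at -0.19 ± 0.06, but WT Rb-HA above parental, at 0.12 ± 0.05, and ΔCdk Rb-HA at 0.06 ± 0.07. Col16a1 and Col9a3 lay within -0.21 to 0.07 of parental, and Col20a1, at the detection limit, within -0.02 to 0.34.

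Col14a1, a FACIT chain that regulates fibril growth in tendon and skin, was the only FACIT gene past 1.6-fold and lay on both sides of parental. Its intensity was 146 on the parental, 230.0 on the Rb-deleted, 183 on the WT Rb-HA and 83.7 on the ΔCdk Rb-HA array. Rb-deleted MEFs were the highest and ΔCdk Rb-HA MEFs the lowest, 3.45-fold apart (log2 -1.79 ± 0.10), with WT Rb-HA and parental between them. Against parental the gene was 1.72-fold higher in Rb-deleted MEFs (0.79 ± 0.10) and 2.00-fold lower in ΔCdk Rb-HA MEFs (-1.001 ± 0.12). A second Col14a1 probe kept the order, with 0.82 ± 0.11 for Rb-deleted and -0.27 ± 0.17 for ΔCdk Rb-HA against parental. With an offset of 50 the increase in Rb-deleted MEFs was 0.64, and with the mean of both probes the decrease in ΔCdk Rb-HA MEFs was -0.64, both short of 1.6-fold.

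The fibrillar, basement membrane and FACIT classes overlapped in every comparison. Against parental on the ΔCdk Rb-HA array, fibrillar genes ran from -0.99 to 0.14, basement membrane genes from -0.63 to -0.31 and FACIT genes from -1.001 to 0.15. For ΔCdk Rb-HA minus Rb-deleted the medians were -0.16, -0.32 and 0.13, the FACIT value turning to -0.01 without Col20a1, that is, over genes detected on all 4 arrays. With 3 to 10 genes a class and 1 array a condition, a difference between classes was not testable.

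**Figure D2:**
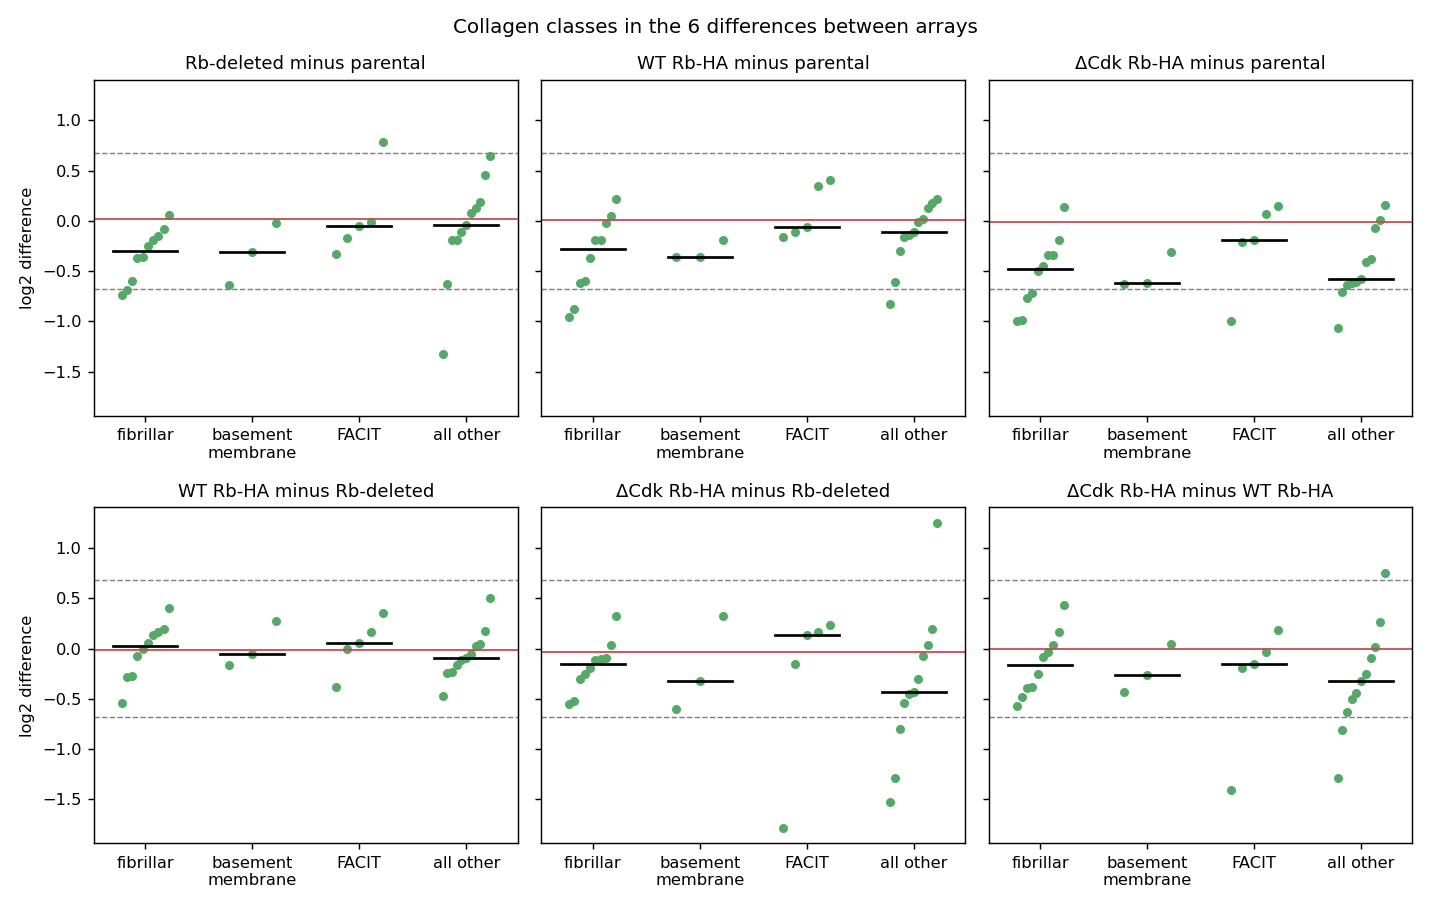
Log2 difference of each detected collagen gene (point) in the 6 pairs of arrays, for the fibrillar, basement membrane and FACIT classes and all other collagens, with a black bar at the class median, a red line at the median of all 12616 genes and dashed lines at 1.6-fold. The class medians lie below the red line in the top row of comparisons with parental, and the classes overlap in all panels. The FACIT median is over 5 genes and changed sign under other detection filters in 3 of the panels.

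Beaded-filament collagen VI, a pericellular microfibril, was lowest in ΔCdk Rb-HA MEFs by the probes used, though not by every other probe. Col6a1 read 12469 on the parental, 11683 on the Rb-deleted, 11392 on the WT Rb-HA and 8297 on the ΔCdk Rb-HA array, and Col6a3 read 11097, 9701, 9624 and 8045. Col6a2 read 2193 on the parental, 2399 on the Rb-deleted, 2158 on the WT Rb-HA and 1373 on the ΔCdk Rb-HA array. ΔCdk Rb-HA was the lowest array for these 3 probes, at -0.58 ± 0.06, -0.41 ± 0.04 and -0.60 ± 0.06 against parental for Col6a1, Col6a3 and Col6a2. Other probes differed, since a dimmer Col6a2 probe was at 0.07 ± 0.07 against parental and a dim Col6a1 probe, starting at base 788, at -0.06 ± 0.10 and above Rb-deleted by 0.18 ± 0.10. A bright second Col6a1 probe was at -0.32 ± 0.05 and lowest with ΔCdk Rb-HA. The Col6a2 difference from Rb-deleted was 1.74-fold (-0.80 ± 0.06) and was the only type VI difference past 1.6-fold. The dimmer Col6a2 probe gave -0.23 ± 0.06 for the same pair, and the mean of both probes, at -0.51, did not pass. Col6a1 and Col6a2, neighbours on chromosome 10 with 0 coding genes between them, differed in their ratio to parental by 0.23 ± 0.08 in Rb-deleted and 0.02 ± 0.09 in ΔCdk Rb-HA MEFs.

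The multiplexin Col15a1 had the order of Col14a1. It read 107 on the parental, 152 on the Rb-deleted, 117 on the WT Rb-HA and 76.4 on the ΔCdk Rb-HA array, highest in Rb-deleted and lowest in ΔCdk Rb-HA MEFs. The latter 2 differed by 2.44-fold (-1.29 ± 0.09), and ΔCdk Rb-HA lay below WT Rb-HA by 1.75-fold (-0.81 ± 0.10), a difference that was -0.60 without background correction. Col18a1, the multiplexin whose cleavage yields endostatin, read 8567, 7348, 6908 and 5541 in the same order of arrays. It was highest in parental MEFs and lowest with ΔCdk Rb-HA, at -0.61 ± 0.04 against parental.

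The short-chain collagens gave the widest contrasts between chains. Type VIII collagen, made by endothelial, corneal and injured smooth muscle cells, is built of Col8a1 and Col8a2 chains. Col8a1 had 4429.7 on the parental, 2828 on the Rb-deleted, 2901 on the WT Rb-HA and 2651 on the ΔCdk Rb-HA array, high in parental MEFs and alike in the others. Col8a2 had 527, 693, 589 and 250.4 in the same order, highest in Rb-deleted MEFs and low with ΔCdk Rb-HA alone. In Rb-deleted MEFs the chains were thus on opposite sides of parental, at -0.63 ± 0.05 and 0.46 ± 0.05, a gap of -1.09 ± 0.07. ΔCdk Rb-HA MEFs were below parental in both, by 1.63-fold for Col8a1 and 2.10-fold for Col8a2. Between ΔCdk Rb-HA and Rb-deleted MEFs, Col8a2 differed by 2.89-fold (-1.53 ± 0.07) and Col8a1 by -0.08 ± 0.05. Second probes of both genes kept the ΔCdk Rb-HA values against parental (-0.80 ± 0.05 for Col8a1 and -1.09 ± 0.18 for Col8a2), but the second Col8a2 probe was at -0.09 ± 0.16 in Rb-deleted MEFs. The second Col8a1 probe was also past 1.6-fold below parental in Rb-deleted (-0.77 ± 0.06) and WT Rb-HA MEFs (-0.69 ± 0.06). The Col8a1 probe used fell short of 1.6-fold on these arrays.

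Col10a1, the type X chain known as the marker of hypertrophic growth plate cartilage, ran the other way. Its intensity was 302 on the parental, 131 on the Rb-deleted, 177 on the WT Rb-HA and 275 on the ΔCdk Rb-HA array. Parental and ΔCdk Rb-HA MEFs were high and differed by -0.08 ± 0.10, while Rb-deleted MEFs were 2.51-fold below parental (-1.33 ± 0.12) and WT Rb-HA MEFs 1.78-fold below it (-0.83 ± 0.12). ΔCdk Rb-HA lay above Rb-deleted by 2.38-fold (1.25 ± 0.10), the only collagen gene to pass 1.6-fold upward in that comparison, and above WT Rb-HA by 1.69-fold (0.75 ± 0.10). The latter difference was 0.67 without background correction and 0.64 with an offset of 50, both short of 1.6-fold. The gene has 1 probe on the array. Of the chondrocyte markers, Sox9 read 1163, 1001, 976 and 1057 in that order of arrays and Acan 116, 115, 89.5 and 64.7. Comp read 109, 140, 101 and 89.4, highest in Rb-deleted MEFs, where Col10a1 was lowest. Matn1, Matn3, Hapln1 and Lect1 were not detected.

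**Figure D3:**
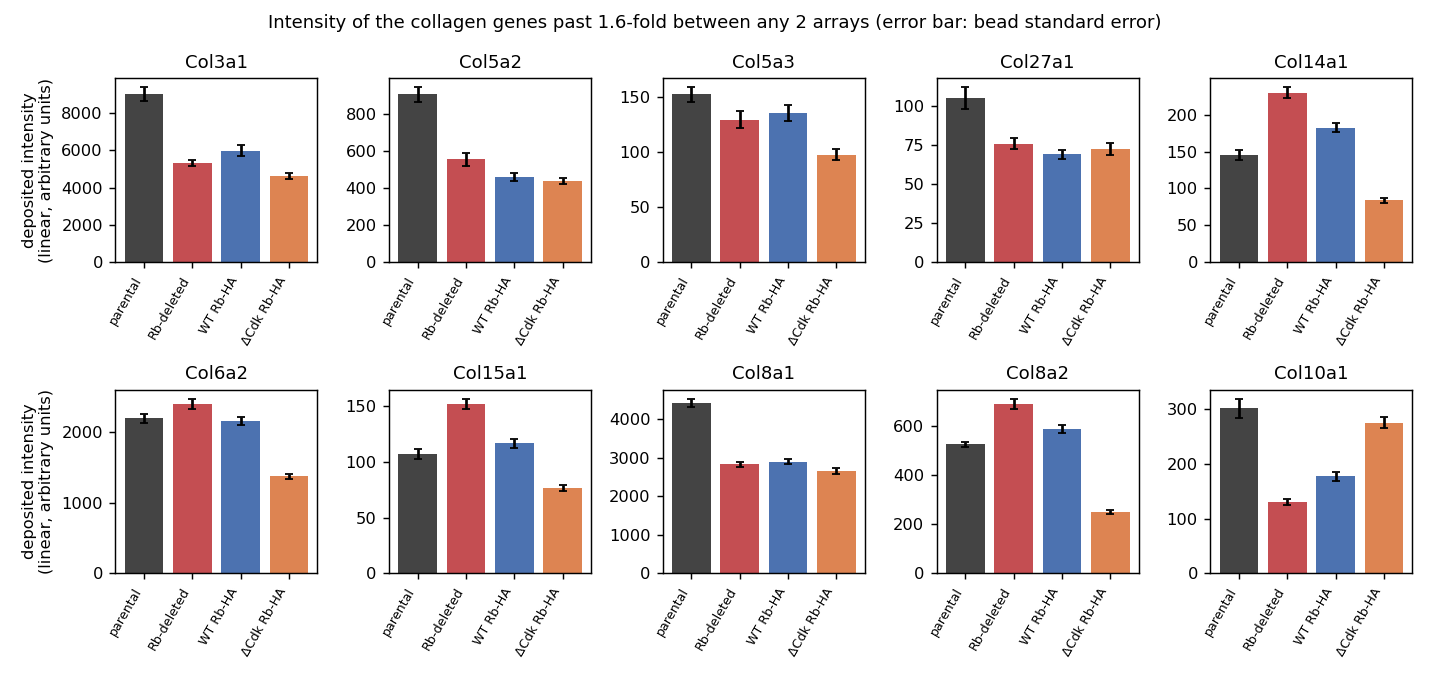
Deposited intensity on a linear axis from 0 of the 10 collagen genes past 1.6-fold in any of the 6 comparisons, 1 bar per array, with the bead standard error of that array as the error bar. Col3a1, Col5a2, Col27a1 and Col8a1 stand highest in parental MEFs, Col14a1, Col15a1 and Col8a2 highest in Rb-deleted and lowest in ΔCdk Rb-HA MEFs, and Col10a1 lowest in Rb-deleted MEFs.

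Of the 29 genes, 19 passed 1.6-fold in no comparison. Besides those given above, the transmembrane collagens Col17a1 and Col23a1 and the anchoring fibril chain Col7a1 lay within -0.38 to 0.16 of parental. Col23a1 was lowest on the ΔCdk Rb-HA array, at -0.38 ± 0.10. For 16 genes more than 1 probe was detected, 24 further probes in all, and these had the sign of the probe used in 21 cases for Rb-deleted, 15 for WT Rb-HA and 20 for ΔCdk Rb-HA against parental. For 9 of the 29 genes the array has a single probe.

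**Figure D4:**
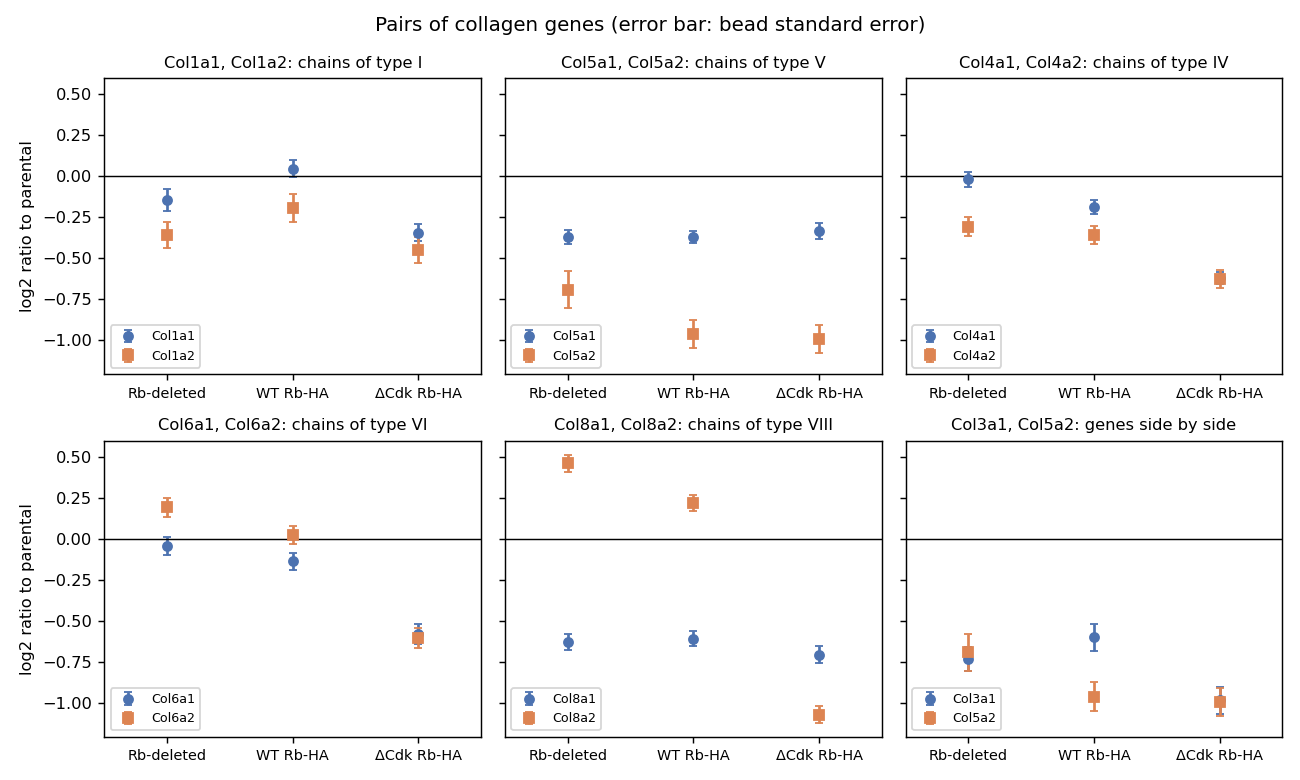
Log2 ratio to the parental array of 6 pairs of collagen genes, 5 pairs of chains of the same collagen type and Col3a1 with its neighbour Col5a2, on each of the other 3 arrays, with bead standard errors, each gene by the probe used. Col4a1 with Col4a2, and Col6a1 with Col6a2, meet on the ΔCdk Rb-HA array, and Col8a1 and Col8a2 lie on opposite sides of 0 in Rb-deleted and in WT Rb-HA MEFs.

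Promoters show what these genes have at their start sites. RefSeq windows of assembly GRCm38.p6, of which the 250 bases before the start site were used, matched 23 of the 29 genes. The 4 printed here belong to the genes past 1.6-fold that stood for an order of arrays, and both they and the motifs were chosen after the values had been seen. Col3a1 (chr1:45311288-45311537, plus strand) was highest in parental MEFs, Col8a1 (chr16:57754738-57754987, minus strand) and Col8a2 (chr4:126286544-126286793, plus strand) are the type VIII chains that parted, and Col10a1 (chr10:34389731-34389980, plus strand) was lowest in Rb-deleted MEFs. Each is given 5′ to 3′ on the gene's strand, and capitals mark every match, on either strand, to a motif. The motifs searched were the TATA box with the letters TATAAA, the CCAAT box named for its letters, the GC box bound by Sp1 factors with the letters GGGCGG, and a site for E2F factors, the partners of Rb, spelled TTTNNCGC.
Col3a1: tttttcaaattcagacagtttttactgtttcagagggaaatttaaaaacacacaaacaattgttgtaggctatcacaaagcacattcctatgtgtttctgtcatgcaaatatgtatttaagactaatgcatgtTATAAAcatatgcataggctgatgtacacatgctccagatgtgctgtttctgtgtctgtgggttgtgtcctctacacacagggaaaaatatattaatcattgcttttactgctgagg
Col8a1: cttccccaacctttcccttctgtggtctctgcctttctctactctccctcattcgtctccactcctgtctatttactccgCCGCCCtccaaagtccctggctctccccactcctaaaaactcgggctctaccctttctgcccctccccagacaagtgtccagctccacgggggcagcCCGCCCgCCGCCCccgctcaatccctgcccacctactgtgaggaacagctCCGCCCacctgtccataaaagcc
Col8a2: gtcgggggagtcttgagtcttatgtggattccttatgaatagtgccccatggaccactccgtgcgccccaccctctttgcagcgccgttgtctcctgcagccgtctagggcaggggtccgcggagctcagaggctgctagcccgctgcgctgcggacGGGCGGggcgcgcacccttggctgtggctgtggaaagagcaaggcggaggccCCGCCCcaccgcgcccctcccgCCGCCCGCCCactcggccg
Col10a1: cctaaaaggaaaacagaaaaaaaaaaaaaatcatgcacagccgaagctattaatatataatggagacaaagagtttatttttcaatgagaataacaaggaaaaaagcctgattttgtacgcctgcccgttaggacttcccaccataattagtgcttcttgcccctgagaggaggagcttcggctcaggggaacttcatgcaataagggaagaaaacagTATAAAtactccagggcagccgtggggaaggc

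Col10a1 has a TATA box whose first base is 32 bases before the start site, and Col3a1 has the same letters 117 bases before it. The Col8a1 and Col8a2 windows hold no TATAAA and 4 GC boxes each, 2 of those of Col8a2 overlapping in CCGCCCGCCC. The 23 collagen genes have 25 windows, since Col6a2 and Col18a1 have 2 each. TATAAA was found in 3 of the 23 genes, against 12.4% of 32851 windows of all genes, CCAAT in 10, against 33.8%, and GGGCGG in 14, against 32.7%. TTTNNCGC was found in 1 of the 23, Col17a1, against 4.28% of all windows. These shares are of windows, while a collagen gene with 2 windows counted when either held the letters. The same 250 bases hold 35.2% G or C in Col3a1, 60.8% in Col8a1, 70% in Col8a2 and 41.6% in Col10a1, against a median of 52.4% over all windows. Most of the 25 collagen windows lay above that median, and the GGGCGG count was not adjusted for this. A match describes the letters of a window and not a bound factor.

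Genes that act on collagen were described from lists by role. Enzymes, chaperones and export factors of collagen synthesis, 29 detected of 35, had medians nearer to 0 than the chains. The median against parental was -0.06 on the Rb-deleted, 0.03 on the WT Rb-HA and 0.07 on the ΔCdk Rb-HA array, and 0 of the 29 passed 1.6-fold there, where 0.888% to 3.3% of all genes did in each direction. The collagen chaperone Serpinh1 read 25566, 24605, 25850.2 and 22958, in the order parental, Rb-deleted, WT and then ΔCdk Rb-HA. The 2 genes of this list past 1.6-fold in any comparison stood above Rb-deleted in ΔCdk Rb-HA MEFs (6.9% of the 29, against 2.31% of all genes). P4ha1, the catalytic chain of prolyl 4-hydroxylase, read 371, 309, 386 and 519 (0.84 ± 0.07 between those 2 arrays), and Sec23a, a coat protein of the vesicles that carry procollagen, read 422, 307, 468 and 525 (0.86). Collagen receptors, 8 detected of 10, passed 1.6-fold in none of the 6 comparisons, where 0.484% to 3.3% of all genes did in each direction.

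Of 17 proteoglycans and glycoproteins that bind fibrils, all detected, 4 were past 1.6-fold below parental in ΔCdk Rb-HA MEFs and 0 above, next to 3.3% and 2.58% of all genes. These were Ogn, Aspn, Podn and Postn. Ogn, osteoglycin, read 4465 on the parental, 3715 on the Rb-deleted, 3461 on the WT Rb-HA and 1907 on the ΔCdk Rb-HA array, and Postn, periostin, read 275, 211, 219 and 124. Both were lowest with ΔCdk Rb-HA, at -1.20 ± 0.06 and -1.26 ± 0.15 against parental. Aspn, asporin, and Podn, podocan, were at -1.02 ± 0.12 and -0.92 ± 0.14. Against Rb-deleted MEFs, 5 of the 17 were lower with ΔCdk Rb-HA (Ogn, Podn, Postn, Dpt and Comp) and 2 were higher (Prelp and Thbs1), next to 1.95% and 2.31% of all genes. Against WT Rb-HA MEFs 4 were lower (Ogn, Podn, Postn and Dpt), next to 1.01% of all genes. Against parental, 0 of the 17 passed 1.6-fold in Rb-deleted or in WT Rb-HA MEFs (all genes: 0.888% to 2.98% in each direction). Kera alone, a dim gene detected on 2 arrays, was higher in WT Rb-HA than in Rb-deleted MEFs (0.539% of all genes), at 66.1 against 43.3. The median of the list on the ΔCdk Rb-HA array was -0.19, and other members such as Bgn, biglycan, and Sparc, at -0.01 ± 0.05 and -0.15 ± 0.03, stayed short of 1.6-fold.

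Partners of type IV collagen in basement membranes, 13 detected of 16, had a median of -0.52 against parental on the ΔCdk Rb-HA array (all genes: -0.01), with 4 past 1.6-fold below and 1 above, next to 3.3% and 2.58% of all genes. The 4 were Agrn, Lama5, Nid2 and Lamb1-1, and the 1 was the laminin chain Lama1, which read 58.5 on the parental and 80.7 on the ΔCdk Rb-HA array. Agrn, the heparan sulfate proteoglycan agrin, read 3063 on the parental, 1879 on the Rb-deleted, 1821 on the WT Rb-HA and 1565 on the ΔCdk Rb-HA array, high in parental MEFs. Nid2, nidogen 2, read 331, 323, 293 and 198, low with ΔCdk Rb-HA. Lamb1-1, a laminin β chain, was at -0.72, -0.66 and -0.71 against parental on the 3 arrays. On the Rb-deleted array 7 of the 13 lay above and 6 below parental (47.5% of all genes were below). Lamb1-1 was past 1.6-fold below (all genes: 2.98%) and Lama1 just past it above, at 0.68 (2.14%). On the WT Rb-HA array the median was -0.087, and Agrn was past 1.6-fold below, at -0.69 (all genes: 2.46%). In ΔCdk Rb-HA MEFs Lama2 was below both other TAT-Cre treated arrays (-0.81 and -0.86), and Nid2 was below Rb-deleted (-0.74). Of all genes 1.95% were past 1.6-fold below Rb-deleted and 1.01% below WT Rb-HA.

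**Figure D5:**
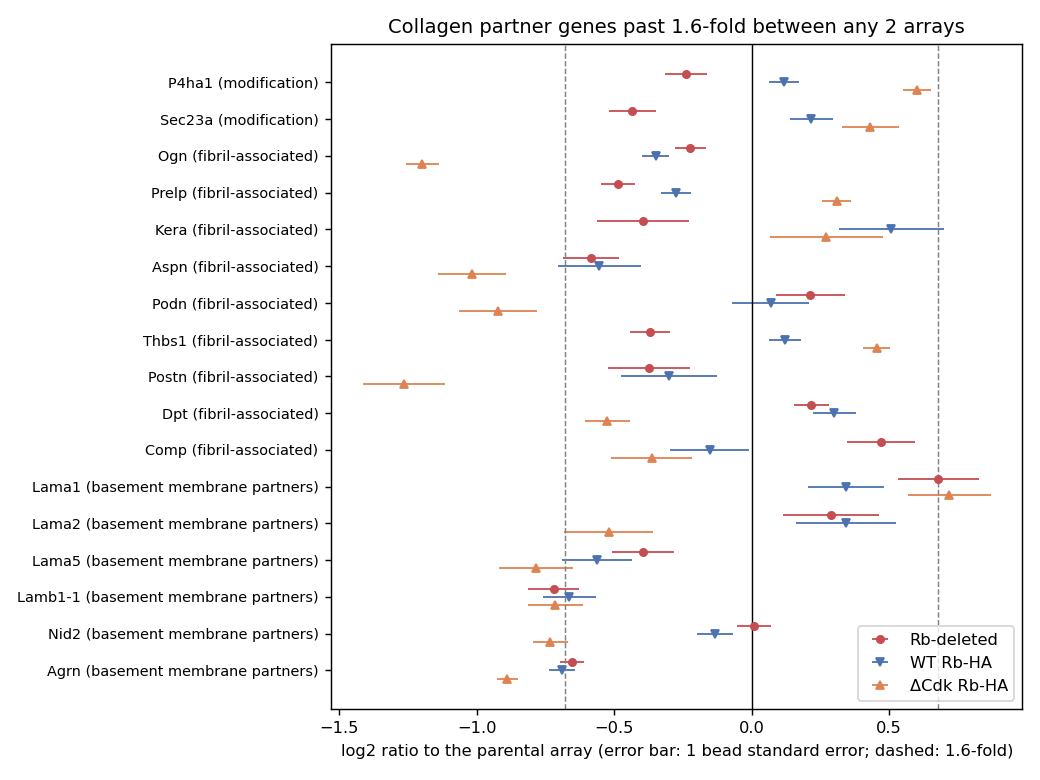
Log2 ratio to the parental array of the 17 partner genes of collagen past 1.6-fold in any of the 6 comparisons, by list, with circles for Rb-deleted, downward triangles for WT Rb-HA and upward triangles for ΔCdk Rb-HA and bars of 1 bead standard error. On the ΔCdk Rb-HA array Postn, Ogn, Aspn and Podn lie between -1.26 and -0.92, while P4ha1 and Lama1 lie at 0.60 and 0.72.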

How the data were processed

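RNA of 4 MEF cultures, 1 per condition, was measured on Illumina mouse whole-genome BeadChips. Group and treatment were taken from the labels. The authors deposited an intensity for each of 45281 probes, a linear mean over beads that had not been normalized across arrays, with a detection p-value, a bead standard error and a bead count. The software that summarized the beads and the genome build are not given in the sources used here, and 0 columns of per-sample values were left unused.

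From the deposited intensities, background was corrected by normexp in limma (version 3.58.1, R 4.3.3), with its mean and spread inferred from detection p-values and an offset of 16. Arrays were quantile normalized and values put on the log2 scale. The offset draws ratios of dim genes toward 0. The probe with the highest mean log2 value among detected probes stood for its gene. The 6 differences between 4 arrays were taken without p-values, since each condition had 1 array. Bead standard errors were carried through each array's mapping from intensity to normalized value and combined over both arrays. Python 3.11.15, numpy 2.4.6 and pandas 2.3.3 were used, and the calculation was tested on simulated data. Collagen classes, partner lists and markers came from general knowledge. Named were the collagen genes past 1.6-fold in any difference, a set of main chains, and partner genes past 1.6-fold. Members and lists were chosen with earlier results of these data known. Genes of like pattern were not searched. Alternatives changed the background correction, the offset, the normalization, the detection filter, the choice of probe and the fold threshold. From the list of basement membrane partners 1 gene was left out and is not reported here.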

Additional observations from a re-analysis of the deposited data

How the results depend on the processing

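Counts of collagen genes past 1.6-fold kept within 1.5 times their value in 96 of 108 results under other settings. These include counts that were 0 under every setting, such as WT Rb-HA minus Rb-deleted in either direction. The detection filters, and an added margin of 2 bead standard errors, changed no count. Medians kept within the bead error in 133 of 144. At 1.5-fold in place of 1.6-fold, the genes above parental on the Rb-deleted array went from 1 to 2 and those below from 3 to 6, those below parental on the WT Rb-HA array from 3 to 6 and those on the ΔCdk Rb-HA array from 7 to 12. At 2-fold the same counts were 0, 1, 0 and 2, and the 1 gene of ΔCdk Rb-HA MEFs above WT Rb-HA became 0. That gene, Col10a1, was also lost without background correction and with an offset of 50 (count 0 in both), and an offset of 50 left 0 genes above parental on the Rb-deleted array. With the mean of all detected probes of a gene, the collagen median against parental was -0.057 (WT Rb-HA) and -0.34 (ΔCdk Rb-HA), the fibrillar median was -0.038 for ΔCdk Rb-HA minus Rb-deleted, and the FACIT median of ΔCdk Rb-HA against parental was -0.068. With detection p-values below 0.05 admitted, which gave 33 collagen genes among 14978, the fibrillar median was -0.19 for WT Rb-HA minus parental and -0.080 for ΔCdk Rb-HA minus WT Rb-HA. The FACIT median was then -0.030 for ΔCdk Rb-HA minus WT Rb-HA, and it changed sign to 0.12 for WT Rb-HA and 0.068 for ΔCdk Rb-HA against parental and to -0.048 for ΔCdk Rb-HA minus Rb-deleted. Over genes detected on all 4 arrays (28 collagen genes among 10838) the latter was -0.011. In the filters on detection the set of genes itself changed, and for the other settings the cause was not tested. Of 720 results of single named genes, 18 fell short of 1.6-fold under another setting, 1 newly passed it, 55 shifted by more than the bead error without crossing 1.6-fold and 0 changed sign past it. No paired analysis was possible because each condition had 1 array. No replicate could be left out for the same reason, and a dim signal close to background limits the ratios of Col20a1, Col27a1, Col11a1, Col17a1 and Col2a1. The same limit bears on Col14a1 and Col15a1 on the ΔCdk Rb-HA array, where they read 83.7 and 76.4.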
